A study of Mus musculus with 9 samples.

Results

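The cone phototransduction cascade was followed through 10 mouse genes: the cone opsins Opn1sw and Opn1mw, the cone transducin subunits Gnat2, Gnb3 and Gngt2, the cone phosphodiesterase subunits Pde6c and Pde6h, the cone channel subunits Cnga3 and Cngb3, and the cone arrestin Arr3. A probe belonged to the set when it was not a control and its gene name in the scanner output equalled one of these symbols. This gave 14 of the 39429 probes on the array, for 10 of 31829 gene names. Opn1mw, Arr3, Pde6c and Pde6h had 2 probes each, and the other genes had 1. Each gene is described by its brightest probe unless another is named.

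The samples were of the choroid (CH), the retinal pigment epithelium (RPE) and the photoreceptors (PR), 3 of each, and each was put on a dual-colour Agilent array of the whole mouse genome, 9 arrays in all. They came from female C57BL/6 mice (sub strain C57BL/6JOlaHsd in the study's methods) that the labels give as 6 months old within 2 weeks, with no treatment or engineered allele named, and every sample is tissue laser dissected out of 1 eye. The study's text gives a slightly lower age. On all arrays the amplified RNA of the tissue was labelled with Cy5, and a pooled RNA of mouse RPE and choroid, labelled with Cy3, served as the common reference. A value is the normalized log2 ratio of Cy5 to Cy3, so that 0 means as much signal as in the reference. The labels number the samples but do not tie the numbers to animals, so the p-values measure only the spread between these samples.

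Cones are the photoreceptors of daylight and colour vision, and in the mouse retina they are far fewer than rods. Light isomerises the retinal bound to a cone opsin, the opsin activates transducin, and the transducin α subunit releases the phosphodiesterase from its inhibitory subunit. The enzyme hydrolyses cGMP, the cyclic nucleotide-gated channel closes, and the cell hyperpolarises. Arrestin binds the phosphorylated opsin and ends the signal. Rods run the same steps with a largely separate set of proteins, encoded by paralogous genes. The RPE lies against the outer segments of both and the choroid lies behind it.

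All 10 genes had their highest level in the PR. A gene was called when its fold change (FC) was above 2.5 and its p-value, from the moderated test of limma with Benjamini-Hochberg adjustment over all 39429 probes, was below 0.01. Higher calls in the PR took in 10 of 10 cone genes against the RPE, where 5.17% of all probes were called higher, and 10 of 10 against the CH, where 6.33% were. All 14 probes were called in both comparisons. The comparisons share the PR arrays and are not independent of each other. The median difference in log2 ratio over the 10 genes was 3.17 against the RPE and 3.20 against the CH, beside 0.01 and 0.05 over all probes. On every one of the 14 probes the 3 PR arrays lay above the 6 other arrays, which was so for 25.1% of the probes measured on all arrays. The values are of bulk tissue, so they give neither the number of cones in a sample nor the RNA of each cone.

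**Figure D1:**
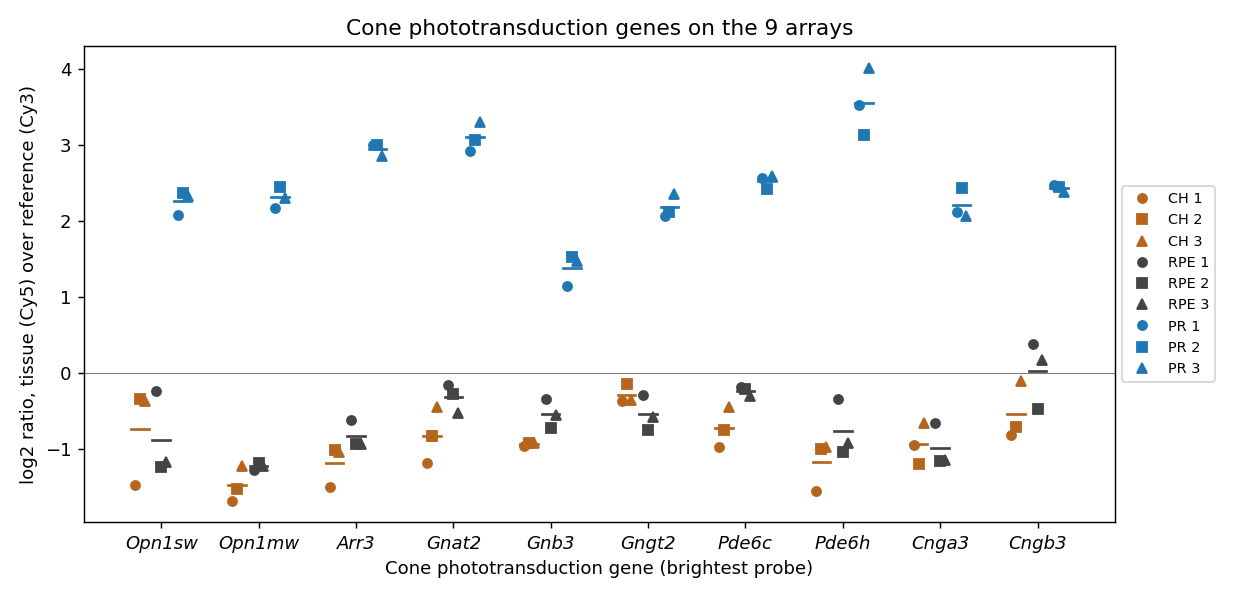
The log2 ratio of tissue (Cy5) over reference (Cy3) of the 10 cone phototransduction genes on the 9 arrays, at the brightest probe of each gene. Each point is 1 array and each line the mean of 3 arrays. The PR points of a gene sit at least 1.49 above its highest CH or RPE point, and Gnb3 has the lowest PR values.

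The cascade starts with the opsins. Opn1sw encodes the short-wavelength opsin of mouse cones, which is sensitive to ultraviolet light. Its log2 ratio was 2.08, 2.37 and 2.33 on the PR arrays, -0.24, -1.23 and -1.17 on the RPE arrays and -1.48, -0.34 and -0.36 on the CH arrays, in the order of replicates 1 to 3. The PR arrays stood apart, and the RPE and CH arrays overlapped and were more spread than those of any other cone gene, with SDs of 0.56 and 0.65 (n = 3). The FC was 8.81 over the RPE (log2 difference 3.14 ± 0.33 SE, adjusted p = 2.81e-05, limma) and 7.93 over the CH (2.99 ± 0.33 SE, adjusted p = 3.34e-05).

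Opn1mw encodes the middle-wavelength opsin of the mouse. At its brightest probe the log2 ratio was 2.17, 2.46 and 2.31 in the PR, -1.27, -1.18 and -1.22 in the RPE and -1.68, -1.52 and -1.22 in the CH. The 3 RPE arrays agreed within 0.05 (SD, n = 3), and only CH replicate 3 reached into their range. The FC was 11.6 over the RPE (3.54 ± 0.13 SE, adjusted p = 2.32e-08, limma) and 13.8 over the CH (3.79 ± 0.13 SE, adjusted p = 1.03e-08). The other probe of Opn1mw spans an exon junction, and it gave 3.29 and 3.56 on the log2 scale.

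This junction probe and the coding probes of Arr3, Pde6c and Pde6h are shown because they read the protein-coding part of the transcript, where the brightest probes of these genes read another stretch, and so give a further reading of the same difference. Each is a 60-base oligonucleotide of the array, with its mm9 position as the files give it. The Opn1mw probe (chrX:71389017-71395936, + strand) and this probe of Pde6h (chr6:136909707-136911753, + strand) have an interval longer than the probe, with an intron in it, and those of Arr3 (chrX:97812262-97812321, + strand) and Pde6c (chr19:38254510-38254569, + strand) lie in 1 stretch.
Opn1mw: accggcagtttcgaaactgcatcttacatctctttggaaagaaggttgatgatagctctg
Arr3: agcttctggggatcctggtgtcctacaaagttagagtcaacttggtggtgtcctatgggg
Pde6c: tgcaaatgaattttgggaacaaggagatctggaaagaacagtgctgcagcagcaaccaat
Pde6h: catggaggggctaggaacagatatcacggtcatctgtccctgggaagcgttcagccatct

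Transducin carries the signal from opsin to phosphodiesterase. Gnat2, its cone α subunit, had log2 ratios of 2.93, 3.08 and 3.31 in the PR, -0.16, -0.27 and -0.52 in the RPE and -1.18, -0.83 and -0.45 in the CH. The PR arrays were clear of the rest, and CH replicate 3 fell among the RPE arrays. The FC was 10.7 over the RPE (3.42 ± 0.19 SE, adjusted p = 2.63e-07, limma) and 15.2 over the CH (3.92 ± 0.19 SE, adjusted p = 7.84e-08).

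Gnb3, the β subunit of cone transducin that ON bipolar cells use as well, had the smallest difference of the set here. Its log2 ratio was 1.15, 1.53 and 1.47 in the PR, -0.34, -0.72 and -0.55 in the RPE and -0.96, -0.92 and -0.91 in the CH. The 3 tissues did not overlap, and the CH arrays had an SD of 0.02 (n = 3). The FC was 3.78 over the RPE (1.92 ± 0.13 SE, adjusted p = 1.14e-06, limma) and 4.98 over the CH (2.32 ± 0.13 SE, adjusted p = 2.38e-07). Against the CH, Gngt2 had the smaller difference with median centring (2.43, beside 2.49 for Gnb3), the slide as a block (2.43 beside 2.55), the Cy5 channel alone (2.22 beside 2.83) and the series table, which holds normalized log2 values of Cy5 (2.23 beside 2.85).

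Gngt2, the cone γ subunit, was at 2.07, 2.12 and 2.36 in the PR, -0.29, -0.74 and -0.58 in the RPE and -0.36, -0.14 and -0.36 in the CH. Here the RPE mean was the lowest of the 3 tissues, and the RPE and CH arrays overlapped. The FC was 6.59 over the RPE (2.72 ± 0.14 SE, adjusted p = 1.6e-07, limma) and 5.54 over the CH (2.47 ± 0.14 SE, adjusted p = 2.2e-07).

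The cone phosphodiesterase is a pair of catalytic α′ subunits, encoded by Pde6c, held in check by an inhibitory γ′ subunit, encoded by Pde6h. Pde6c had log2 ratios of 2.57, 2.43 and 2.60 in the PR, -0.18, -0.21 and -0.31 in the RPE and -0.97, -0.75 and -0.45 in the CH. The 3 tissues did not overlap, and the CH was lowest. The FC was 6.80 over the RPE (2.77 ± 0.13 SE, adjusted p = 1.12e-07, limma) and 9.54 over the CH (3.25 ± 0.13 SE, adjusted p = 2.79e-08). The coding probe printed above gave 2.60 and 3.22 on the log2 scale.

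At the brightest probe Pde6h had the largest difference of the 10 genes in both comparisons on the ratio scale. It did not hold this place in Cy5 alone. Its log2 ratio was 3.53, 3.13 and 4.02 in the PR, -0.34, -1.03 and -0.91 in the RPE and -1.54, -0.99 and -0.97 in the CH. The PR arrays were more spread than those of any other cone gene (SD 0.45, n = 3), and the spot of PR replicate 3 was saturated. The FC was 20.04 over the RPE (4.32 ± 0.26 SE, adjusted p = 5.02e-07, limma) and 26.6 over the CH (4.73 ± 0.26 SE, adjusted p = 2.07e-07). With saturated spots left out the brightest probe gave 4.09 and 4.50, still the largest of the 10 genes. The junction probe, not saturated on any array, gave 3.66 and 4.15, beside 3.78 and 4.13 for the brightest probe of Arr3. With the Cy5 channel alone the brightest probe gave 3.104 and 3.32, below Cnga3 at 3.66 against the RPE and Opn1mw at 3.82 against the CH, and the series table gave 2.999 and 3.199, below the same genes at 3.74 and 3.84.

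The cyclic nucleotide-gated channel of cones is built from the subunits Cnga3 and Cngb3. Cnga3, the subunit that forms a channel on its own, had log2 ratios of 2.12, 2.44 and 2.07 in the PR, -0.66, -1.15 and -1.14 in the RPE and -0.95, -1.20 and -0.66 in the CH. The RPE and CH arrays had nearly the same range. The FC was 9.15 over the RPE (3.19 ± 0.18 SE, adjusted p = 3.42e-07, limma) and 8.84 over the CH (3.14 ± 0.18 SE, adjusted p = 2.94e-07).

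Cngb3, the modulatory subunit, was at 2.47, 2.45 and 2.39 in the PR, 0.39, -0.47 and 0.18 in the RPE and -0.82, -0.70 and -0.11 in the CH. It had the tightest PR arrays of the set (SD 0.04, n = 3) and was the one cone gene with RPE arrays above the reference, replicates 1 and 3. The FC was 5.30 over the RPE (2.41 ± 0.23 SE, adjusted p = 1.4e-05, limma) and 7.88 over the CH (2.98 ± 0.23 SE, adjusted p = 2.47e-06).

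Arr3, the cone arrestin that quenches the activated opsin, had log2 ratios of 3.01, 3.01 and 2.85 in the PR, -0.62, -0.93 and -0.94 in the RPE and -1.49, -1.01 and -1.04 in the CH. The lowest RPE array was above the highest CH array. The FC was 13.8 over the RPE (3.78 ± 0.15 SE, adjusted p = 3.59e-08, limma) and 17.6 over the CH (4.13 ± 0.15 SE, adjusted p = 1.39e-08). The coding probe of Arr3 gave 3.05 and 3.52, and the gap of 0.73 to the brightest probe against the RPE was the widest between any 2 probes of a cone gene.

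**Figure D2:**
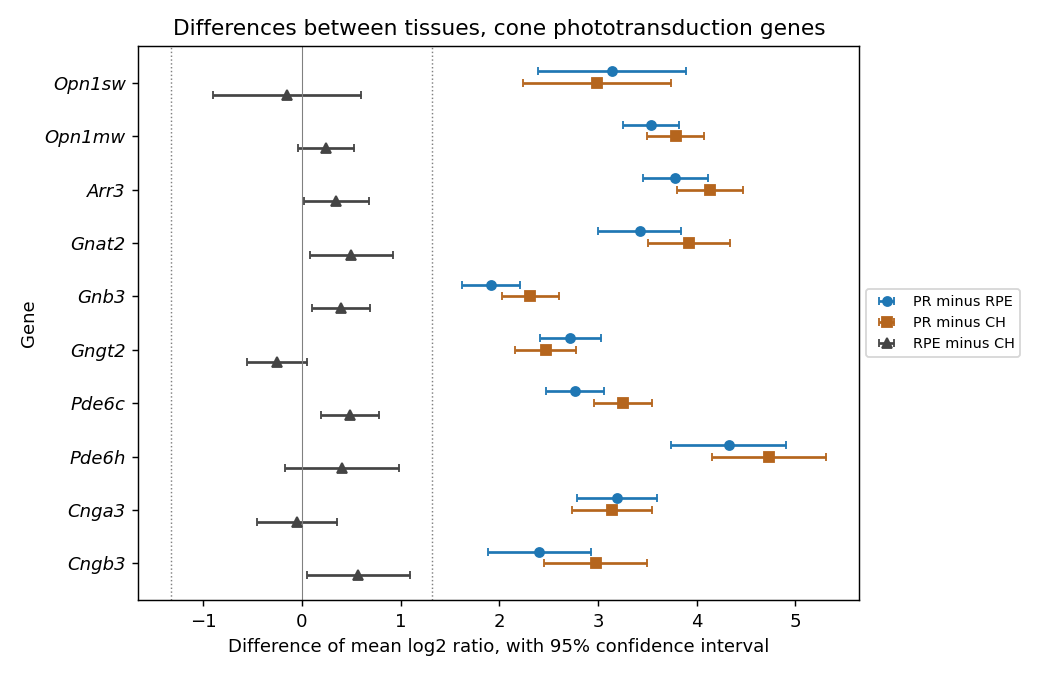
Differences of mean log2 ratio between the tissues for the 10 cone phototransduction genes, with 95% confidence intervals from the limma fit and dotted lines at an FC of 2.5 in either direction. Every PR difference lies right of the dotted line, from 1.92 for Gnb3 to 4.73 for Pde6h, and every RPE minus CH difference lies between the dotted lines.

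The arrays lay on 3 slides, and slide 2 held 1 array of each tissue. Within it the PR array was higher than the RPE array by 2.25 to 4.16 (log2) and higher than the CH array by 2.26 to 4.12 over the 10 genes. Slide 1 held only CH and RPE arrays and slide 3 only PR arrays. With the slide as a block in the fit, the differences were 2.15 to 3.94 and 2.43 to 4.35. The PR side of this fit rests on PR replicate 2, so it is not separate from the values within slide 2.

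Between the RPE and the CH, none of the 10 genes was called in the limma fit, where 1.74% of all probes were called in one direction or the other. At an adjusted p below 0.05 with no limit on the FC, 1 gene passed, Pde6c. This call rested on single arrays and on the scaling. Pde6c did not pass without CH replicate 1 (adjusted p = 0.0731), CH replicate 2 (0.0786), RPE replicate 1 (0.0778) or RPE replicate 2 (0.0625), nor with median centring (0.541), Cy5 alone (0.299), the Feature Extraction log ratio (0.0532) or the series table (0.297), all from limma. Without CH replicate 3, 4 genes passed, Pde6c, Gnat2, Cngb3 and Opn1mw (adjusted p = 0.00434, 0.017, 0.0297 and 0.048, limma). Without RPE replicate 2, Cngb3 and Gnb3 passed instead of Pde6c (adjusted p = 0.0233 and 0.0358, limma). Gnb3 passed beside Pde6c in further settings. These were dim probes left out, only the tissues compared in the fit, a trend and robust variance, and PR replicate 1 left out. The median difference was 0.37 on the log2 scale, beside 0.04 over all probes. The RPE mean was higher for 7 genes and lower for Opn1sw, Gngt2 and Cnga3. These differences ran from -0.25 to 0.57 and depended on the scaling. With median centring they ran from -0.57 to 0.36 with 6 of 10 above 0, while the median over all probes stayed at 0.04. In the RPE Pde6c was 1.40-fold higher (0.49 ± 0.13 SE, adjusted p = 0.0242), and its coding probe was 1.53-fold higher (0.62 ± 0.13 SE, adjusted p = 0.00819), both under the FC of 2.5. Gnb3 was at 0.40 ± 0.13 SE (adjusted p = 0.0546), Gnat2 at 0.50 ± 0.19 SE (adjusted p = 0.0847) and Cngb3 at 0.57 ± 0.23 SE (adjusted p = 0.114). The 95% interval of the difference took in 0 for 5 genes: Opn1sw (-0.90 to 0.60), Opn1mw (-0.04 to 0.53), Gngt2 (-0.56 to 0.06), Pde6h (-0.17 to 0.99) and Cnga3 (-0.46 to 0.36). None of the 10 intervals reached a log2 difference of 1.32, which is an FC of 2.5. The 3 RPE arrays lay above the 3 CH arrays for Arr3, Gnb3 and Pde6c, 3 of 10 genes, beside 20.7% of all probes.

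The cone genes were thus measured in the RPE and the CH too: all 14 probes were well above the local background on all 9 arrays in Cy5, beside 56.4% of all probes, and on all 9 arrays in the Cy3 reference as well, beside 65.6%. Within the RPE, replicate 1 had the highest value for 9 of the 10 cone genes, all but Opn1mw, and the mean log2 ratio over the 10 genes was -0.37 on it, against -0.79 and -0.72 on replicates 2 and 3. The rod counterparts had the same order on these arrays, with means of 0.66, -0.36 and 0.07. In the CH the means were -1.14, -0.84 and -0.65 for the cone genes and -0.93, -0.45 and -0.06 for the rod counterparts, with replicate 1 lowest in both. The part that photoreceptor material in the RPE and CH samples had in these values was not tested.

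**Figure D3:**
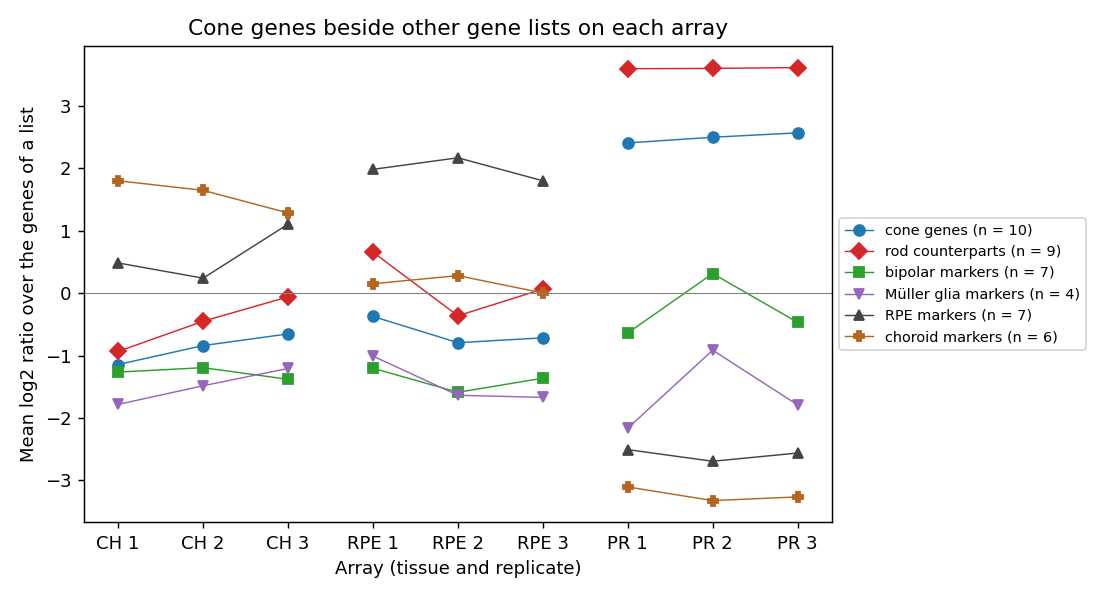
The mean log2 ratio over the genes of each list on the 9 arrays, for the cone phototransduction genes, their rod counterparts and marker genes of other cell types. The cone genes and the rod counterparts have their highest RPE value on replicate 1 and their lowest CH value on replicate 1, and the bipolar and Müller glia markers are highest in the PR on replicate 2.

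Of the counterparts that these genes have in rods, 9 were set beside them: Sag for Arr3, Gnat1, Gnb1 and Gngt1 for the transducin subunits, Pde6a, Pde6b and Pde6g for the phosphodiesterase, and Cnga1 and Cngb1 for the channel. At the brightest probe all 9 counterparts were called higher in the PR in both comparisons, and none between the RPE and the CH. They had 11 probes in all, of which 10 were called higher over the RPE and 11 over the CH. The shares over all probes were 5.17% and 6.33%. The probe not called was at 1.13 (log2) over the RPE, below every cone gene. Their median difference was 3.40 against the RPE and 4.11 against the CH, in part limited by saturation. Sag, Gnat1, Gngt1 and Pde6g were saturated on all 3 PR arrays and have only a lower bound there. From their Cy5 levels (loess, then Aquantile between arrays), with no dye swap to remove a dye bias, they were at least 2.65-fold, 1.87-fold, 1.96-fold and 1.44-fold higher than in the RPE. Their adjusted p-values in the fit of the log2 ratio were 5.75e-07, 1.51e-05, 8.72e-05 and 0.0002 (limma). These belong to the ratio and not to the Cy5 bounds. No cone gene was saturated on more than 1 array.

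For the 5 pairs without such saturation, the cone gene's PR minus RPE difference was set against that of its rod counterpart by an exact two-sided permutation test over the 3 PR and 3 RPE arrays, which cannot give a p below 0.1. Only the brightest probe of each gene was used, so the order at other probes of the rod genes was not tested. With a smallest p of 0.1 no pair could pass at 0.05, so the test cannot decide whether the genes of a pair differ. The cone difference was smaller in all 5 pairs. It was smaller by 1.55 on the log2 scale for Cngb3 and Cngb1, by 1.48 for Cnga3 and Cnga1, by 0.74 for Gnb3 and Gnb1 and by 0.63 for Pde6c and Pde6a. Each of these 4 had the smallest p the test allows, 0.1, and an adjusted p of 0.125 over the 5 pairs, exact permutation test. Pde6c and Pde6b differed by 0.27 (exact p = 0.4). Gnb1, Pde6a and Cnga1 were saturated on 1 PR array each. With median centring in place of loess the gap fell to 0.31 for Gnb3 and Gnb1, 0.21 for Pde6c and Pde6a and 0.08 for Pde6c and Pde6b.

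**Figure D4:**
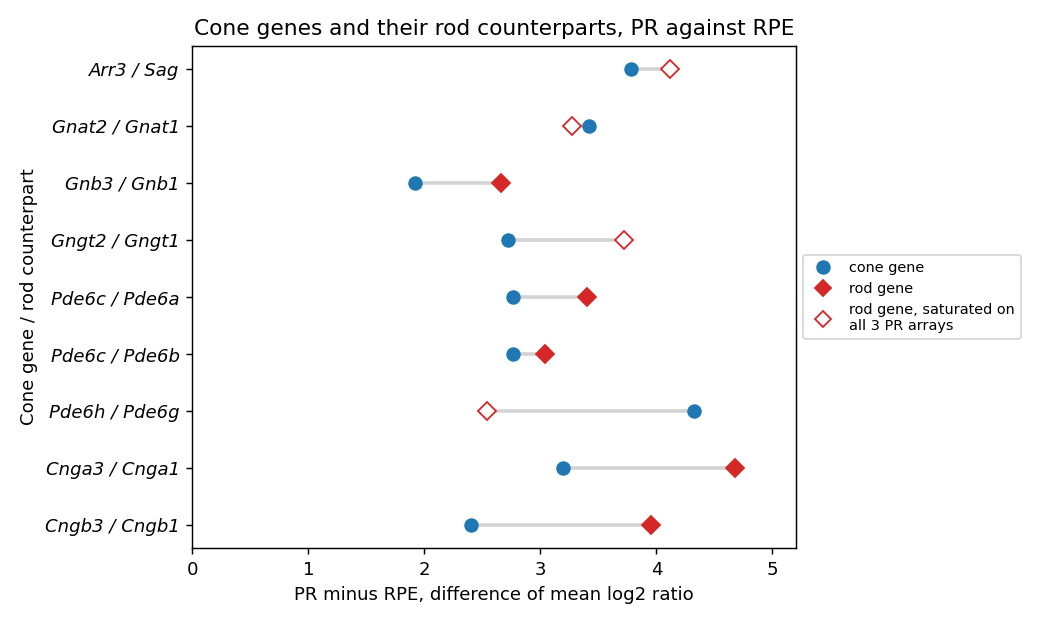
The PR minus RPE difference of mean log2 ratio for cone genes (circles) and their rod counterparts (diamonds), at the brightest probe. Open diamonds are rod genes saturated on all 3 PR arrays, whose values are limited by the scanner. Among the pairs with filled diamonds the cone gene lies left of the rod gene, by 0.27 to 1.55.

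Photoreceptors also share a set of proteins that shut the cascade off and reset it through calcium, and 12 of these genes were taken as a list. Of the 12, 10 were called higher at the brightest probe in the PR against the RPE and 11 against the CH. None differed by a call between the RPE and the CH, beside 1.74% of all probes. Of their 22 probes, 15 were called higher over the RPE and 17 over the CH, beside 5.17% and 6.33% of all probes. Slc24a2, the sodium-calcium exchanger of cones, rose 2.59-fold over the RPE (1.37 ± 0.10 SE, adjusted p = 1.82e-06, limma) and 3.55-fold over the CH at its brightest probe. Its other probes gave 0.95 and 0.46 over the RPE and were not called. Gucy2f, a guanylate cyclase that makes cGMP, was at 1.31 over the RPE (adjusted p = 0.000113), just under the FC limit. Rgs9, which speeds the hydrolysis of GTP by transducin, was called lower in the PR at its 2 brightest probes, by 4.47 and 4.19 against the RPE, while its dimmer probe gave 1.19 in the other direction. The probes of Rgs9 disagree, and no direction is given for the gene.

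Of 5 photoreceptor transcription factors, 4 were called higher in the PR in both comparisons at the brightest probe. They had 8 probes in all, of which 5 were called higher over the RPE and 6 over the CH. The shares over all probes were 5.17% and 6.33%. Thrb, the thyroid hormone receptor that directs cones to the middle-wavelength opsin, rose 2.57-fold over the RPE (1.36 ± 0.09 SE, adjusted p = 1.34e-06, limma) and 3.94-fold over the CH. Rxrg, a retinoid receptor of developing cones, had log2 ratios of 0.83, 0.53 and 0.95 in the PR, 0.78, 0.53 and 0.96 in the RPE and 0.81, 0.36 and 0.51 in the CH. These arrays overlapped, and its difference from the RPE was 0.02 (95% interval -0.35 to 0.38, adjusted p = 0.946).

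The promoters of the cone genes were searched for the core of the site bound by the photoreceptor factor CRX, TAATC, or GATTA on the other strand. RefSeq entries for the 250 bases before the transcription start (build GRCm38.p6) were matched by symbol for 6 of the 10 genes, Cnga3 with 2 entries. Arr3, Gnat2 and Opn1sw held the core and are printed because they do, with the core in capitals, and Opn1mw, Pde6h and Cnga3 did not hold these letters in this window. The share of all 32851 entries with the core was 19.8%, and 0.554% had it 3 times or more, as Arr3 did. Of the 6 rod counterparts with an entry, 5 held it: Sag, Gngt1, Pde6b, Cnga1 and Cngb1. A match is a run of letters and not a measured site. The windows are chrX:100605247-100605496 (+ strand) for Arr3, chr3:108092816-108093065 (+ strand) for Gnat2 and chr6:29380514-29380763 (- strand) for Opn1sw, each written from 5′ to 3′ towards its start.
Arr3: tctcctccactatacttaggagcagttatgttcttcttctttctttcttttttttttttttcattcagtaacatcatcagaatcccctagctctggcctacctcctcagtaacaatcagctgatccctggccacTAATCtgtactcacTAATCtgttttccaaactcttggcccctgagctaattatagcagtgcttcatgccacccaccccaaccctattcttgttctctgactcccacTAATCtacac
Gnat2: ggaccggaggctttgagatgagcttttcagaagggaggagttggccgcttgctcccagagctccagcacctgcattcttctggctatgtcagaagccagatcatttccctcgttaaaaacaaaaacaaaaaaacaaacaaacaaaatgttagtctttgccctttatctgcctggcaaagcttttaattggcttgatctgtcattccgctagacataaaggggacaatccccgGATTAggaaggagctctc
Opn1sw: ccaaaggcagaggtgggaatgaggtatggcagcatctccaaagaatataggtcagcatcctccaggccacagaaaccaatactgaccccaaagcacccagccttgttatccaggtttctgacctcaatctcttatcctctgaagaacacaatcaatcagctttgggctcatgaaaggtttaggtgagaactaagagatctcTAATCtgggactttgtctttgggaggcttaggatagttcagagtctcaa

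In Arr3 the cores begin 116, 102 and 10 bases before the start, in Gnat2 18 bases and in Opn1sw 49 bases before it. These are the genes with FCs over the RPE of 13.8, 10.7 and 8.81, and the genes without the core in this window, Opn1mw, Pde6h and Cnga3, had FCs of 11.6, 20.04 and 9.15, so the FCs of genes with and without it overlapped.

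The tissues were checked with marker lists. Of 7 RPE markers, 6 were called lower in the PR than in the RPE, 5 rose from the CH to the RPE, 3 of these saturated on all 3 RPE arrays, and Best1 was well above background on 1 RPE array only. Of 6 choroid markers, 5 were called lower in the PR than in the CH and 3 had lower calls in the RPE against the CH. Of 4 pigment cell markers all were called lower in the PR. The share of all probes called lower in the PR was not computed, so these counts describe the markers only. The summed Cy5 level of the RPE markers was 20.41 to 20.77 on the log2 scale in the CH, 20.89 to 21.02 in the RPE and 18.22 to 18.69 in the PR. That of the choroid markers was 18.95 to 19.22, 17.66 to 17.96 and 14.90 to 15.03.

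Of 7 bipolar cell markers, Grm6, Pcp2 and Prkca were called higher in the PR in both comparisons, beside 5.17% and 6.33% of all probes. The summed Cy5 level of the 7 markers on the log2 scale was 16.30 to 16.72 in the CH, 16.22 to 16.47 in the RPE and 17.03 to 17.66 in the PR. All 7 were well above background on all 9 arrays. On PR replicate 2 their mean log2 ratio was 0.32, against -0.64 and -0.47 on replicates 1 and 3. PR replicate 2 lay on slide 2 and replicates 1 and 3 on slide 3. Slide and sample therefore cannot be told apart in any contrast of PR replicate 2 given here. Gnb3, the cone gene that bipolar cells also use, was 0.38 higher on PR replicate 2 than on replicate 1 and 0.06 higher than on replicate 3. Its rise over replicate 1 was the largest of the 10 cone genes. Cnga3 was higher there by 0.32 and 0.37, Opn1sw by 0.29 and 0.04, Opn1mw by 0.28 and 0.15 and Arr3 by 0.002 and 0.15. Pde6h differed by -0.40 and -0.89 and Pde6c by -0.14 and -0.17, both lower on replicate 2. Gnat2, Gngt2 and Cngb3 lay between replicates 1 and 3. Without PR replicate 2, all 10 cone genes were called in both comparisons. Of 4 Müller glia markers, none was called higher in the PR and Glul was called lower. The 3 others had a higher mean in the PR than in the RPE, by 0.41 to 0.69 on the log2 scale, without passing. Against the CH, 2 of the 4 markers had a higher mean in the PR and 2 a lower one. All 4 were higher on PR replicate 2 than on replicate 1, by 1.14 to 1.32, and than on replicate 3, by 0.50 to 1.31. Their summed level, most of it from the Glul probe, was 17.20 to 17.66 in the CH, 17.58 to 17.65 in the RPE and 15.97 to 16.72 in the PR. The part of bipolar cells in the PR value of Gnb3 was not tested.

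Outside these lists, the 5 genes whose log2 ratio over the 9 arrays was most like the mean profile of the cone genes were Prom1, Tmem145, Polg2, Plch2 and a transcript that the files name only by an Ensembl identifier. Prom1 encodes a membrane protein of the discs of photoreceptor outer segments, and its Pearson's r with the profile was 0.999 (n = 9 arrays). It was taken from 24579 probes that were well above background on all 3 PR arrays. Its log2 ratio was 2.27, 2.29 and 2.40 in the PR, -0.75, -1.42 and -1.33 in the RPE and -1.78, -1.52 and -1.18 in the CH. The cone genes themselves had an r of 0.978 (Opn1sw) to 0.998 (Arr3) with their mean profile, which holds each of them. All these values share the step between the PR arrays and the other 6.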

How the data were processed

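The authors deposited Agilent Feature Extraction 9.5.3.1 output for 9 dual-colour arrays, made per the labels with R 2.14.0 and limma downstream. Its mean signals and median local backgrounds are deposited intensity values as scanned, and its log ratio, deposited beside them, is Cy5 over Cy3 as log10. The series table deposited by the authors gives log2 values for Cy5 alone, between 0.985 and 0.999 in correlation with the log2 Cy5 signal, after a normalization not given in the sources used here. The log10 ratio and the series table served only as alternatives.

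From the intensities, normexp (offset 50) was applied for background and loess to log2(Cy5/Cy3) within each array of 44397 spots. Controls and 228 to 586 outlier-marked spots per array were left out, and spots of a probe were averaged. A mean per tissue was fitted with limma 3.58.1 in R 4.3.3, adjusted over 39429 probes. The fit was tested on simulated data. Between 62.0% and 91.6% of probes per array were well above background in Cy5, highest on RPE replicate 2, and 3 arrays per tissue limit the precision. The genes, lists and rules, by which all cone genes, their counterparts, Thrb, Rxrg, Slc24a2 and genes behind small counts are named, were chosen with earlier results of these data known. One planned rod counterpart is not reported here. Gnb3 and bipolar markers are set side by side after their values were seen. Alternatives covered background, normalization, channel, arrays fitted, replicate and slide blocks, dim, outlier and saturated spots, probes per gene, variance model, thresholds and each array left out.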

Additional observations from a re-analysis of the deposited data

How the results depend on the processing

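Under 26 alternatives, the count of cone genes called was 10 of 10 in the PR against the RPE, 10 of 10 against the CH and 0 of 10 between the RPE and the CH. This covers each of the 9 arrays left out in turn, where the counts ranged from 10 to 10, from 10 to 10 and from 0 to 0. With the replicate number as a block the counts were 10, 10 and 0 as well. Samples that share a number correlated in their deviations between -0.08 and 0.29 and did not all do so best with their own number. Those numbered 2, which share slide 2, did so in all 3 comparisons (0.16 to 0.29). With the slide as a block no gene was called between the RPE and the CH. The PR differences of that fit, which rest on PR replicate 2, kept their sign. No single PR difference changed sign. Between the RPE and the CH, 8 of 260 recomputed differences changed sign, none of them called. Opn1mw became -0.0139 with median centring. Opn1sw, at -0.15, became 0.018 with the Cy5 channel alone, and with 1 array left out it ranged from -0.526 without CH replicate 1 to 0.0415 without CH replicate 2 (also 0.0311 without CH replicate 3 and 0.0232 without RPE replicate 2). Cnga3, at -0.05, ranged from -0.212 without RPE replicate 1 to 0.0885 without CH replicate 3 (also 0.0328 without RPE replicate 2 and 0.0283 without RPE replicate 3). The cause was not tested. The smaller PR difference of the cone gene kept its sign in all 5 pairs with rod counterparts under median centring and the Feature Extraction log ratio. Saturation of rod probes limits 4 further pairs, and the order of the RPE and the CH for these 3 cone genes is not settled at 3 arrays per tissue.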
